A study of Mus musculus with 12 samples.

Results

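Vascular endothelial growth factors (VEGF) and platelet-derived growth factors (PDGF) were followed in RNA from 4T1, an established mouse line of mammary carcinoma with a known tendency to form lung metastases. The set was chosen by symbol as the rows of the count table that map to 6 ligand genes (Vegfa, Vegfb, Vegfc, Pgf, Pdgfa and Pdgfb) and 4 receptor genes (Flt1, Nrp1, Nrp2 and Pdgfra). All 10 were found among 22880 features, and all 10 passed the filter on low counts. The 12 libraries formed 4 groups of 3. The mock cells carried the plasmid pcDNA3.1, and the MYBup cells carried pcDNA3-mMyb for overexpression of Myb, a transcription factor gene. No plasmid had been given to the wt cells, nor to the lung3 cells, which had gone through the mouse lung 3 times. Per the labels, lung metastatic activity was low in MYBup, high in lung3 and normal in both controls. The labels do not say whether the transfected or passaged cells were pools or clones, or whether replicates were separate cultures. The p-values then measure only how far these libraries spread, and that spread may be technical.

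VEGF and PDGF proteins are secreted dimers of 1 structural superfamily that bind receptor tyrosine kinases. Vegfa encodes the main growth factor for blood vessel endothelium and acts through the receptors encoded by Kdr and Flt1, whereas the products of Vegfb and Pgf bind the Flt1 protein. Vegfc encodes a growth factor for lymphatic vessels and acts mainly through the receptor encoded by Flt4. The neuropilins encoded by Nrp1 and Nrp2 have no kinase domain, and they bind both VEGF proteins and class 3 semaphorins. The chains encoded by Pdgfa and Pdgfb drive mesenchymal cells such as fibroblasts and pericytes, and the Pdgfra product is a receptor for both. Tumour cells are commonly a source of these ligands, while the receptors are typical of endothelial and stromal cells.

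Promoter sequence is shown for 4 of the 5 genes that passed in a main comparison, because the study raised the level of a transcription factor. The other, Pdgfb, was not matched to a window. The windows are the 250 bases before the gene start, from RefSeq on GRCm38.p6, given 5′ to 3′ on the gene's strand. Capitals mark the core of the Myb binding motif, AACNG, found on either strand. The upstream window of Vegfa lies at chr17:46032378-46032627 on the minus strand and the Vegfc window at chr8:54077282-54077531 on the plus strand.
Vegfa: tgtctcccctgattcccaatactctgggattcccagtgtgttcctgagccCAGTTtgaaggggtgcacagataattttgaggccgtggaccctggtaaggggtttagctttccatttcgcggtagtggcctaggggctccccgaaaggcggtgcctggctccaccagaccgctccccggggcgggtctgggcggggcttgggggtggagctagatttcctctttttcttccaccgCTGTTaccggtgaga
Vegfc: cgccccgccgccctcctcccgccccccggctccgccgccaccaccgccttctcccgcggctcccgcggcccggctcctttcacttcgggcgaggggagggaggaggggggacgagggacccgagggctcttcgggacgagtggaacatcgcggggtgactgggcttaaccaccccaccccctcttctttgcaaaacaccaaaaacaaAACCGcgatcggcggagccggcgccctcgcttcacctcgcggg
For Pgf (chromosome 12, minus strand) and Nrp1 (chromosome 8, plus strand) the 21 bases around the match are shown.
Pgf: tcaccgccAACCGgctctcag
Nrp1: agaggaccAACCGggaaagca
The matches began 200 and 15 bases before the RefSeq start in Vegfa, 43 in Vegfc, 100 in Pgf and 177 in Nrp1. Vegfa and Pgf each have a second window, at another start, and neither of these holds the core. All 250 bases of both Pgf windows lie in exons of the GENCODE annotation, so the Pgf match is inside that gene model. The Nrp1 window, at chr8:128358823-128359072, holds 0 exon bases but lies past the GENCODE start of Nrp1 at 128358604. The Nrp1 match is therefore also inside its gene model. Of 12 windows available for 9 of the genes, 7 held the core, against 74.2% of 32851 promoter windows of the same length. The core of the hypoxia response element, ACGTG, was in 1 of the 12, the second window of Vegfa, against 16.6% of all windows. The GC box, GGGCGG, was in 10 of 12, against 32.7%, and the AP-1 motif, TGANTCA, in 0 of 12, against 6.75%. The 4 motifs were searched on both strands. The Vegfa window shown had 59.2% G and C and the Vegfc window 71.6%, beside a mean of 53.2% over all windows. A match describes the letters of the window and is no evidence of binding.

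Total counts ran from 8912989 to 24745660 per library, and the largest count of the set was 10700. Myb, the transfected gene, had 40.7 ± 1.94 CPM with pcDNA3-mMyb and 5.49 ± 1.19 with pcDNA3.1 (SD, n = 3), where CPM is the count scaled by the library's total and its TMM factor. In lung3 cells Myb had 2.71 ± 0.459 CPM, against 4.99 ± 0.742 in wt. The 7 markers of the mammary epithelium summed to between 1969 and 2769 CPM in a library, mostly from Krt8, Krt18 and Cdh1. Others were low in some groups, with Krt14 at 1.84 ± 0.629 CPM in mock and Cldn3 at 8.05 ± 7.14 in wt. Between mock and wt 3 of the 7 were called higher and 4 lower, beside 18.0% and 17.9% of all tested genes. Of 10 fibroblast and pericyte markers 5 to 7 per group had any count, and they summed to at most 0.970 CPM in a library, with Lum and Kcnj8 at 0 in every group. The 9 endothelial markers summed to at most 1.90 CPM, with Cldn5 at 0 in every group, and the 8 leukocyte markers to at most 0.813 CPM. The 6 lung epithelial markers summed to 2.31 to 12.95 CPM, nearly all from Aqp5, which had 5.40 ± 0.431 CPM in wt, 4.39 ± 1.81 in lung3, 8.21 ± 0.847 in mock and 12.05 ± 0.663 in MYBup cells, while Sftpc, Sftpb and Sftpa1 were at 0 in every group. Without mock replicate 3 and lung3 replicate 3, libraries that stood apart in an earlier analysis of these data, every call of the 10 genes in the main comparisons described below held. Flt1 then also passed in MYBup (adjusted p = 0.0143) and lung3 (0.0303), and Pdgfra in lung3 (0.0491). Fewer cells of a type and less RNA per cell cannot be told apart in bulk RNA.

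All 10 genes were expressed in untransfected cells, at levels that differed widely when counts were scaled by gene length. Per kilobase of merged exons, Nrp2 was the highest in wt cells, at 38.7 ± 1.23 CPM per kb (SD, n = 3), higher than 88.6% of 11257 tested genes with a known length. Vegfb followed at 16.9 ± 2.31. Next came Pdgfa (9.96 ± 0.685), Nrp1 (9.96 ± 1.29), Pdgfb (9.54 ± 2.09) and Vegfa (8.0 ± 0.548), where each overlapped the next in order. Flt1 (3.73 ± 0.169) and Pdgfra (2.65 ± 0.449) were lower, and Pgf (1.37 ± 0.184) and Vegfc (1.24 ± 0.274) overlapped at the bottom. The tested genes had a median of 7.14 CPM per kb in wt cells. Nrp2 stayed first in all 4 groups, while Pdgfb was second in lung3 and Vegfb second in the other 3 groups. In lung3 cells Pdgfb and Vegfb overlapped. The second place depended on the length used. Scaled by the longest transcript, Nrp1 was second in wt (26.7, against 21.2 for Vegfb) and MYBup (31.8, against 23.9 for Vegfb). It was also second in lung3 (26.3, against 24.6 for Pdgfb), while Vegfb stayed second in mock.

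Of 6 further listed ligand and receptor genes, Pdgfc and Pdgfrl were tested and 4 were at or near 0. Kdr, Flt4 and Pdgfd had 0 counts in all 12 libraries, which allows up to 3 counts or 0.124 to 0.346 CPM in a library. Flt1 was therefore the VEGF receptor kinase gene with reads, next to the neuropilins. Vegfd had 6 to 19 counts per group and was not tested. Pdgfc, a PDGF chain gene, was at 1.67 ± 1.25 CPM in wt, 3.87 ± 3.20 in lung3, 3.35 ± 1.54 in mock and 5.86 ± 0.379 in MYBup cells (SD, n = 3), and did not pass in either main comparison (adjusted p = 0.248 and 0.198, edgeR). Pdgfrl, a gene related to the PDGF receptors, was lower with Myb overexpression, at 5.64 ± 0.789 CPM against 9.92 ± 2.09 in mock (log2 fold change -0.83, adjusted p = 0.0413), a call that ended without any 1 of mock replicates 1 and 2, the MYBup replicates or wt replicate 2 (adjusted p up to 0.162). The wt cells had 3.57 ± 0.952 CPM of Pdgfrl, lower than MYBup.

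MYBup cells were set beside mock cells to find what differs at a high level of Myb. Vegfa and Pgf fell and Nrp1 rose in MYBup cells, so 3 of 10 genes passed (edgeR quasi-likelihood test, Benjamini-Hochberg adjusted p under 0.05). Among all 11291 tested genes 26.9% passed, 14.3% as higher and 12.6% as lower, so the share is near the background. The 6 ligand genes all had negative log2 fold changes, and 3 of 4 receptor genes had positive ones. The median log2 fold change of the 10 genes was -0.23, beside 0.00 for all tested genes.

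Vegfa had 41.1, 37.7 and 37.7 CPM in mock replicates 1 to 3 and 23.7, 25.7 and 25.8 in MYBup. Every MYBup library lay below every mock library and also below every wt library, which had 33.2, 32.7 and 37.0 CPM. Vegfa fell by 0.63 on the log2 scale against mock (95% interval -0.82 to -0.44, adjusted p = 0.000235). It also fell against wt (log2 fold change -0.45, adjusted p = 0.00172), while mock was not called against wt (0.18, adjusted p = 0.118), although these groups did not overlap.

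Pgf, the gene of placental growth factor, had 21.3, 24.5 and 20.9 CPM in mock replicates 1 to 3 and 9.86, 7.32 and 9.01 in MYBup. In wt cells it had 3.41, 4.09 and 4.46 CPM, and in lung3 cells 5.02, 6.004 and 3.12. Mock cells were thus the highest and MYBup cells stood between mock and wt, with no overlap among these 3 groups. Pgf fell by 1.35 in MYBup against mock (95% interval -1.73 to -0.97, adjusted p = 0.000124). Against wt it was higher in MYBup (log2 fold change 1.13, adjusted p = 0.000599) and in mock (2.48, 95% interval 2.08 to 2.87, adjusted p = 1.86e-06), comparisons that share the wt libraries. The direction for MYBup therefore depended on the control.

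Nrp1 had 51.3, 43.2 and 75.0 CPM in mock replicates 1 to 3 and 103, 124 and 121 in MYBup. The groups did not overlap, and mock replicate 3 was the nearest to MYBup. Nrp1 rose by 1.04 on the log2 scale (95% interval 0.63 to 1.45, adjusted p = 0.00147). The wt cells had 94.1, 111 and 86.8 CPM, so mock was below wt (log2 fold change -0.79, adjusted p = 0.00582), and MYBup was not called against wt (0.25, 95% interval -0.15 to 0.65, adjusted p = 0.304).

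The remaining 7 genes did not pass between MYBup and mock. Vegfc (log2 fold change -0.49, adjusted p = 0.0843) and Pdgfb (-0.51, adjusted p = 0.0716) had groups that did not overlap, as did Pdgfa (-0.17, 95% interval -0.40 to 0.05, adjusted p = 0.239), against 40.6% of all tested genes with no overlap. Without mock replicate 1 both Vegfc (adjusted p = 0.0309) and Pdgfb (0.0464) passed, and Pdgfb also passed in DESeq2 (0.0412) and with no low-count filter (0.0362). Flt1 had a log2 fold change of 0.34 (adjusted p = 0.0644) and passed without mock replicate 3 (0.0149) or MYBup replicate 1 (0.0443). Nrp2 was at -0.28 (adjusted p = 0.126), and it passed without mock replicate 2 (-0.43, adjusted p = 0.00494), whose 355 CPM stood apart from 495 and 525 in the other mock libraries. Vegfb (-0.06, 95% interval -0.36 to 0.24) and Pdgfra (0.14, 95% interval -0.19 to 0.47) had intervals on both sides of 0.

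**Figure D1:**
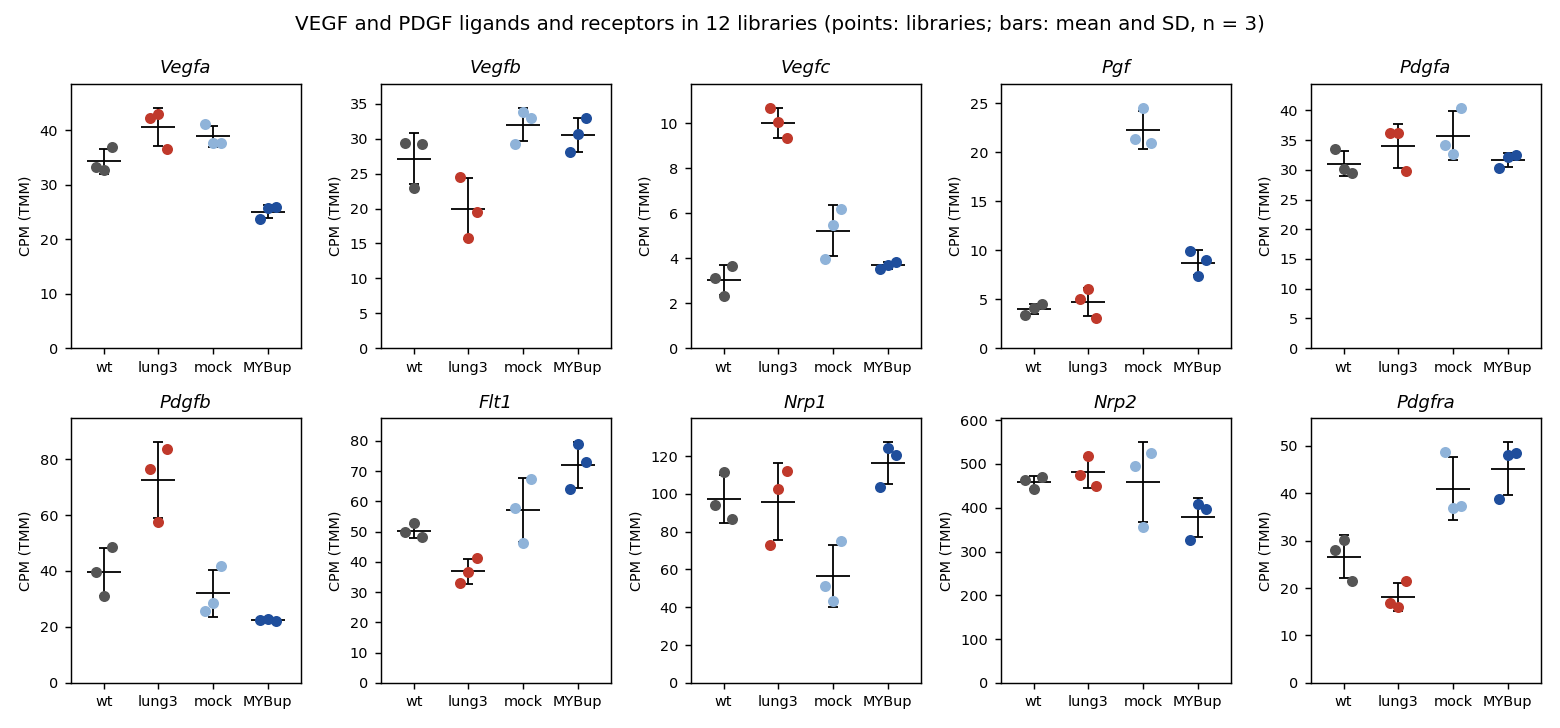
CPM (TMM scaling, linear axis from 0) of each gene in the 3 libraries of wt, lung3, mock and MYBup cells, with the mean and SD. Vegfc and Pdgfb were highest in lung3, Pgf was highest in mock, and the MYBup libraries of Vegfa lay below all others.

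Lung passage was examined by setting lung3 beside wt cells. Vegfc and Pdgfb rose, so 2 of 10 genes passed, against 5.36% of all tested genes. None fell (0 of 10 in edgeR, where 3 had an unadjusted p under 0.05 and a negative value, and 2 in DESeq2), beside 2.91% of all tested genes higher and 2.44% lower. The log2 fold changes were positive in 5 of 6 ligand genes and negative in 3 of 4 receptor genes, with a median over the 10 genes of 0.10, beside 0.00 for all tested genes. The replicate numbers of these 2 groups deviated together. In a fit on these 6 libraries 3 of 10 passed and 649 genes in all, and with the replicate number as a block in that fit 5 of 10 passed and 1985 genes in all.

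Vegfc had 3.14, 2.31 and 3.64 CPM in wt replicates 1 to 3 and 10.7, 10.05 and 9.36 in lung3. These rest on 56 to 76 counts per wt library and 87 to 147 per lung3 library. The lowest lung3 library was above every other library of the study, since mock had 3.98, 5.49 and 6.21 CPM and MYBup 3.50, 3.70 and 3.84. Vegfc rose by 1.73 on the log2 scale, or 3.32-fold (95% interval of the log2 value 1.32 to 2.14, adjusted p = 0.000262), and it passed with each library left out and with the block. It was also higher in mock than in wt (0.78, adjusted p = 0.00718), while MYBup was not called against wt (0.29, adjusted p = 0.279).

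Pdgfb had 39.5, 31.1 and 48.5 CPM in wt replicates 1 to 3 and 76.5, 57.5 and 83.5 in lung3. The groups did not overlap, and replicate 2 was the lowest in both. Pdgfb rose by 0.88 on the log2 scale, or 1.84-fold (95% interval of the log2 value 0.47 to 1.28, adjusted p = 0.0155). Leaving out wt replicate 1 (adjusted p = 0.069) or 2 (0.073) ended the call, and so did leaving out lung3 replicate 1 (0.0511) or 3 (0.0649). With the block the adjusted p was 8.62e-07. MYBup cells, at 22.3, 22.99 and 22.1 CPM, lay below every wt library (log2 fold change -0.82, adjusted p = 0.00528). The platelet marker genes, of which Ppbp was the highest, summed to 4.85 to 6.70 CPM in lung3 and 1.77 to 2.69 in wt libraries. Pf4, a defining platelet gene, had 1 count over the lung3 libraries and 0 elsewhere, and the part of other cells in the Pdgfb result was not tested.

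Vegfb, Flt1 and Pdgfra had negative log2 fold changes in lung3 that did not pass in the fit on all 12 libraries. With only the 6 libraries compared Flt1 passed (adjusted p = 0.0225), and Vegfb (0.131) and Pdgfra (0.0572) passed once the replicate block was added. Pdgfra had 28.1, 30.2 and 21.5 CPM in wt and 16.8, 15.9 and 21.4 in lung3, so that replicate 3 of the 2 groups nearly met. Fibroblast and pericyte markers summed to 0.409 to 0.4795 CPM in wt and 0.231 to 0.970 in lung3 libraries. Pdgfra had a log2 fold change of -0.55 (95% interval -0.90 to -0.20, adjusted p = 0.0667), and with the block the adjusted p was 0.00983. Flt1 had 49.9, 52.8 and 48.3 CPM in wt and 33.0, 36.5 and 41.3 in lung3, with no overlap, as in 27.4% of all tested genes. Endothelial markers summed to 0.240 to 0.578 CPM in wt and 0.115 to 0.970 in lung3 libraries, and their part in the Flt1 and Pdgfra values was not tested. For Flt1 the log2 fold change was -0.44 (95% interval -0.72 to -0.17, adjusted p = 0.0648, and 0.00197 with the block). Vegfb had 29.4, 22.9 and 29.2 CPM in wt and 24.5, 15.8 and 19.5 in lung3, and the groups overlapped. Its log2 fold change was -0.43 (95% interval -0.74 to -0.12, adjusted p = 0.101, and 0.00407 with the block), and it passed without lung3 replicate 1 (-0.61, adjusted p = 0.0384). Flt1 passed without mock replicate 2 (adjusted p = 0.0178) or 3 (0.0345), and Pdgfra without mock replicate 2 (0.048) or wt replicate 3 (0.0246). Both passed in DESeq2 (0.0278 and 0.023) and with no low-count filter (0.0333 and 0.0287).

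Vegfa had 42.3, 43.0 and 36.5 CPM in lung3 and overlapped wt in lung3 replicate 3 alone (log2 fold change 0.24, 95% interval 0.05 to 0.43, adjusted p = 0.13). Pdgfa (0.13, 95% interval -0.10 to 0.35), Pgf (0.21, -0.25 to 0.66), Nrp2 (0.07, -0.21 to 0.35) and Nrp1 (-0.03, -0.43 to 0.38) did not pass either. Nrp1 had 72.9, 103 and 112 CPM in lung3, with replicate 1 apart from the others.

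Between mock and wt cells 4 of 10 genes passed, against 35.9% of all tested genes, and between MYBup and wt 5 of 10, against 38.2%. Pgf, Vegfc and Pdgfra were higher and Nrp1 lower in mock, beside 18.0% and 17.9% of all tested genes. Pgf, Flt1 and Pdgfra were higher and Vegfa and Pdgfb lower in MYBup, beside 19.4% and 18.7%. Pdgfra had 48.6, 36.9 and 37.3 CPM in mock and 38.7, 48.1 and 48.6 in MYBup, and every transfected library was above every untransfected one. Of all tested genes, 46.9% did not overlap between mock and wt and 55.6% between MYBup and wt. Its log2 fold change was 0.62 in mock (adjusted p = 0.00647) and 0.76 in MYBup (adjusted p = 0.00188), both against wt. Flt1 had 57.7, 46.1 and 67.3 CPM in mock and 64.2, 79.0 and 72.8 in MYBup, and MYBup was above wt (log2 fold change 0.52, adjusted p = 0.00621) while mock was not called (0.18, adjusted p = 0.282). The endothelial markers summed to 1.63 to 1.90 CPM in mock and 1.38 to 1.76 in MYBup libraries. Tie1 was the highest of them, at 1.44 ± 0.116 CPM in mock, 0.871 ± 0.174 in MYBup and 0.0298 ± 0.0260 in wt. Plvap had 17 counts over the MYBup libraries (0.383 ± 0.0208 CPM) and 0 in mock and wt. In mock and MYBup Pecam1, Cdh5 and Vwf had 2 to 11 counts per group, and Erg had 0 and 1. Tek, Emcn and Cldn5 were at 0 in mock and MYBup, and the part of endothelial cells in the Flt1 and Pdgfra values was not tested. Without mock replicate 2 Flt1 also passed in mock (0.32, adjusted p = 0.0367), and without mock replicate 3 Pdgfb did (-0.55, adjusted p = 0.0284). Nrp2 passed between MYBup and wt without mock replicate 2 (-0.27, adjusted p = 0.0235) and in the fit on those 6 libraries.

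Directions were then set side by side for the 2 main comparisons, which share no library. The log2 fold changes had opposite signs in 9 of 10 genes, Vegfb being the exception, against 52.7% of all tested genes. None of the 10 passed in both (0 in edgeR and in limma voom, 1 in DESeq2, Pdgfb), where 1.44% of all tested genes were called in opposite directions, and 4 of 10 had an unadjusted p under 0.05 in both (Vegfa, Vegfc, Pdgfb and Flt1), against 6.15% with opposite signs among all tested genes. The same direction in both was called for 0 of 10 in edgeR and in DESeq2, beside 1.07% of all tested genes, and 5 of 10 were called in neither comparison, beside 70.3%. Without mock replicate 1 Pdgfb and Vegfc passed in both, and without mock replicate 3 Flt1 did. The difference between the 2 effects, lung3 minus wt less MYBup minus mock, was tested in the same fit. It passed in 7 of 10 genes, against 19.9% of all tested genes (9.52% positive, 10.4% negative). The 4 ligand genes Vegfc (2.22 on the log2 scale, SE 0.27, adjusted p = 0.00016), Pgf (1.55, adjusted p = 0.00188), Pdgfb (1.38, adjusted p = 0.0035) and Vegfa (0.87, adjusted p = 0.000456) had the higher effect in lung3. The 3 receptor genes Nrp1 (-1.07, SE 0.27, adjusted p = 0.0135), Flt1 (-0.78, adjusted p = 0.00907) and Pdgfra (-0.69, adjusted p = 0.0437) had the lower effect. The Pdgfra call ended in limma voom (adjusted p = 0.051) and without mock replicate 2 or 3, MYBup replicate 2 or 3, or 1 of replicates 1 and 2 of wt and lung3 (adjusted p up to 0.105). Nrp2 passed without mock replicate 2 (0.51, adjusted p = 0.0151). For Pgf and Nrp1 the effects in lung3 were 0.21 and -0.03, and those in MYBup -1.35 and 1.04.

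**Figure D2:**
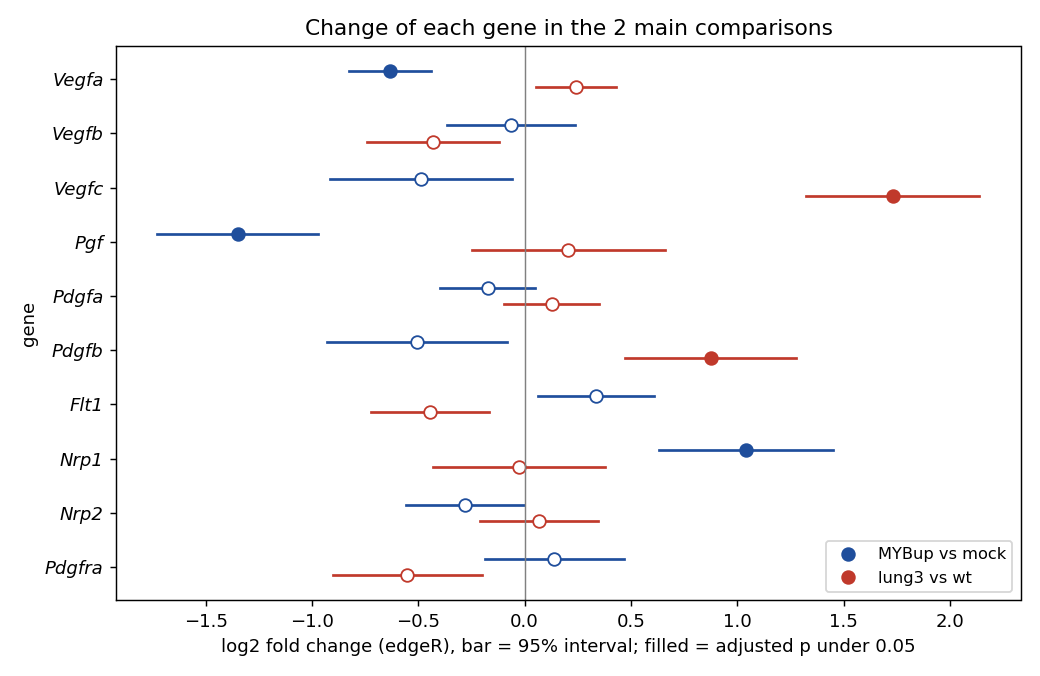
log2 fold change (horizontal axis) of each gene between MYBup and mock (blue) and between lung3 and wt (red), with 95% intervals from the edgeR fit; filled points passed an adjusted p of 0.05. Vegfa, Pgf and Nrp1 are filled for MYBup and Vegfc and Pdgfb for lung3, and the 2 points of a gene lie on opposite sides of 0 except for Vegfb.

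The make-up of each family, as shares of its summed CPM per kb, differed between groups. Vegfc made up 4.46% ± 0.543 of the 4 VEGF ligand genes in wt and 14.9% ± 0.884 in lung3 cells (SD, n = 3), while the sum hardly differed, at 27.5 ± 2.94 and 27.6 ± 3.13 CPM per kb. Vegfb had 61.3% ± 2.71 in wt and 44.8% ± 6.04 in lung3 cells. Pgf had 19.7% ± 1.22 in mock, 10.3% ± 1.78 in MYBup and 5.03% ± 0.851 in wt cells. Of the 2 PDGF chain genes, Pdgfb made up 48.6% ± 6.0 in wt, 61.2% ± 6.70 in lung3, 39.8% ± 3.72 in mock and 34.7% ± 0.876 in MYBup cells, and the PDGF sum was 28.3 ± 2.54 CPM per kb in lung3 against 19.5 ± 2.08 in wt. Among Flt1, Nrp1 and Nrp2, Nrp2 had 64.9% ± 0.617 in MYBup and 73.9% ± 2.66 to 79.5% ± 1.84 in the other groups. These shares were not tested. They rest on merged exon lengths, and which transcript of a gene was made, such as the soluble form of Flt1, was not measured.

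**Figure D3:**
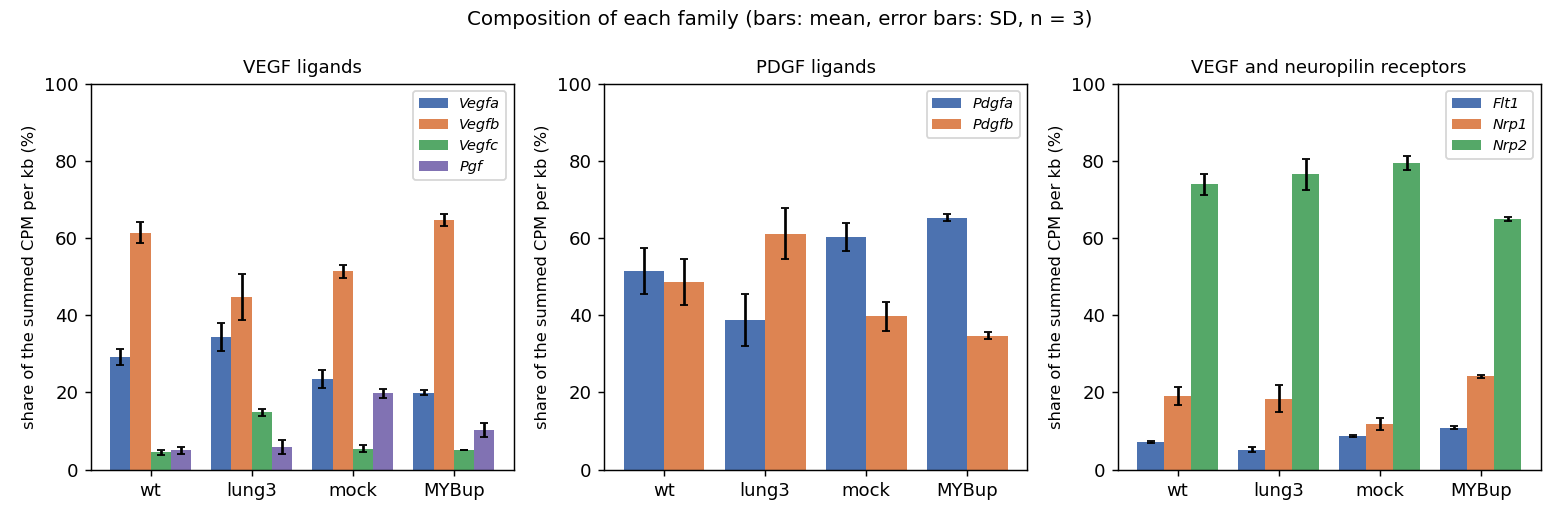
Share of each gene (percent, axis from 0 to 100) in the summed CPM per kb of the VEGF ligand, PDGF ligand and VEGF and neuropilin receptor genes, by group, mean with SD of 3 libraries. The Vegfc share is highest in lung3, at 14.9%, and the Pgf share in mock, at 19.7%.

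Genes that act with these ligands and receptors were read from lists, beside the 26.9% of all tested genes called between MYBup and mock and the 5.36% called between lung3 and wt. The semaphorin and plexin list includes genes of other neuropilin ligands and of their signalling partners. Of its 8 tested genes, 4 fell and 0 rose in MYBup (median log2 fold change -0.53). There edgeR gave 0 and DESeq2 0 higher at an unadjusted p under 0.05. Sema3b fell from 4.58 ± 0.694 to 1.31 ± 0.0683 CPM (log2 fold change -1.80, adjusted p = 0.000595) and stood at 4.56 ± 1.12 in wt. Plxnd1, which encodes a semaphorin receptor, fell by 1.05 (adjusted p = 0.00344), Sema3a by 1.02 (0.0135) and Plxna4 by 0.70 (0.0243). Plxnd1 had 17.3 ± 2.35 CPM in mock, 8.33 ± 1.42 in MYBup and 9.75 ± 0.603 in wt. Sema3a had 3.12 ± 1.05, 1.59 ± 0.272 and 1.92 ± 0.331 in the same order, and Plxna4 24.1 ± 5.47, 14.8 ± 3.40 and 9.54 ± 0.989. Mock was called higher than wt in 4 of the 8 and lower in 0 (edgeR), beside 18.0% and 17.9% of all tested genes. In lung3 Plxna4 fell by 1.11 (adjusted p = 0.0209), and the other 7 did not pass (median of the list -0.29). A further 4 of the 12 listed genes had too few counts for the edgeR test. Among them Sema3c had 27 counts over the lung3 libraries, 3 over wt, 0 over mock and 1 over MYBup. DESeq2, which took in all 12, called 1 higher and 1 lower in lung3. The Sema3a call ended without mock replicate 1 or MYBup replicate 3, and the Plxna4 calls without mock replicates 1 or 3 or MYBup replicate 1 and without wt replicates 1 or 2 or lung3 replicates 1 or 3. The adjusted p then reached 0.115.

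Among 11 tested genes of ligand processing and binding, 2 rose and 1 fell in MYBup, and 1 rose in lung3, with medians of -0.06 and -0.01. Plat encodes tissue plasminogen activator, which can cleave the PDGF-C chain, and was at 17.3 ± 2.03 CPM in MYBup against 4.26 ± 0.264 in mock (log2 fold change 2.02, adjusted p = 3.12e-07) and at 13.9 ± 1.46 in lung3 against 8.39 ± 0.288 in wt (0.73, adjusted p = 0.00361). Of the proprotein convertase genes, Pcsk6 rose by 0.64 in MYBup (adjusted p = 0.00952, and 0.0515 without mock replicate 1). Furin fell by 0.37 (adjusted p = 0.0402), a call that ended in the fit on the 6 libraries compared and without any 1 of 9 libraries (all but mock replicate 2 and lung3 replicates 1 and 2), with adjusted p of up to 0.158.

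Receptor signalling genes fell in 5 and rose in 1 of 25 members in MYBup (median log2 fold change -0.09), and the edgeR test called 0 of 25 in lung3 (2 had an unadjusted p under 0.05, and DESeq2 called 2). Pik3r1, a regulatory subunit gene of PI3 kinase, fell by 0.62 (adjusted p = 0.0046), Hras by 0.56 (0.0012), the ERK kinase gene Mapk3 by 0.48 (0.00378) and the phospholipase gene Plcg1 by 0.27 (0.0159, and up to 0.0699 without mock replicate 1 or MYBup replicate 3). Pik3r1 had 57.1 ± 8.96 CPM in mock, 37.1 ± 1.93 in MYBup and 36.4 ± 3.20 in wt. In the same order, Hras had 67.5 ± 5.80, 45.8 ± 5.08 and 61.3 ± 5.64 CPM. Mapk3 had 114 ± 11.7, 81.2 ± 9.07 and 61.3 ± 5.33, so MYBup stayed above wt, and Plcg1 had 93.8 ± 5.33, 77.6 ± 0.884 and 74.1 ± 2.77. Genes of feedback and receptor turnover moved both ways, 2 higher and 4 lower of 13 in MYBup and 1 higher and 3 lower in lung3, with medians of -0.09 and -0.04. Spry2, a feedback inhibitor of receptor kinase signalling, had 69.1 ± 2.95 CPM in MYBup against 50.8 ± 3.52 in mock (log2 fold change 0.45, adjusted p = 0.0033) and 39.2 ± 2.88 in lung3 against 57.3 ± 6.09 in wt (-0.54, adjusted p = 0.00545). Gipc1, which encodes a protein that binds the tail of the Nrp1 product, rose by 0.32 in MYBup (adjusted p = 0.0409) and fell by 0.67 in lung3 (0.00384). Cblb, a ubiquitin ligase gene, fell by 0.43 in MYBup (adjusted p = 0.0157) and rose by 0.52 in lung3 (0.0251). Cblb had 30.6 ± 4.19 CPM in mock, 22.8 ± 1.77 in MYBup, 21.7 ± 1.35 in lung3 and 15.2 ± 1.90 in wt. MYBup and lung3 thus both lay above wt. Lrig1 fell by 0.54 in MYBup (adjusted p = 0.000298) and the ERK phosphatase gene Dusp6 fell by 0.53 in lung3 (0.00323). The MYBup call of Gipc1 ended without any mock library, any wt library or MYBup replicates 2 or 3 (adjusted p up to 0.125). Those of Cblb ended without mock replicate 1 or MYBup replicate 1, and without wt replicates 1 or 2 or lung3 replicates 2 or 3 (adjusted p up to 0.119).

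Of 7 tested oxygen-sensing genes, which control transcription of Vegfa in low oxygen, Arnt rose by 0.42 (adjusted p = 0.000911) and Egln1 by 0.23 (0.0235) in MYBup, and edgeR called 0 of 7 in lung3 (2 had an unadjusted p under 0.05, and DESeq2 called 1), with medians of 0.01 and 0.03. Arnt was at 65.6 ± 2.25 CPM in MYBup and 63.9 ± 1.03 in wt, and at 48.8 ± 3.84 in mock. The Egln1 call ended without mock replicates 1 or 3 or MYBup replicates 2 or 3 (adjusted p up to 0.0981), and with no low-count filter or in the fit on the 6 libraries compared. Of 17 tested other angiogenic factors and inhibitors, 5 rose and 2 fell in MYBup and 4 rose and 3 fell in lung3, with medians of 0.01 and 0.11. Thbs2, the gene of an angiogenesis inhibitor, had 42 counts over the MYBup and 3 over the mock libraries (ratio 15.8, 95% counting interval 5.06 to 79.9). With 5 counts in wt and 3 in lung3, it passed the low-count filter through the MYBup libraries alone. Its call as higher there is therefore no separate evidence. The protease gene Adamts1 rose by 0.62 (adjusted p = 0.00261). Adamts1 had 35.3 ± 6.55 CPM in mock and 54.2 ± 2.03 in MYBup against 172 ± 11.2 in wt, so both plasmid lines lay below wt. Angpt1, an angiopoietin gene, rose by 2.38 (adjusted p = 0.0187, and up to 0.0593 without mock replicate 3 or MYBup replicate 2). Its levels were low, at 0.594 ± 0.344 CPM in mock (32 counts over 3 libraries), 3.29 ± 0.633 in MYBup and 0.500 ± 0.605 in wt. In lung3 the endothelin gene Edn1 rose from 1.89 ± 0.942 to 7.44 ± 0.984 CPM, Ccn1 from 312 ± 8.88 to 566 ± 64.8 (log2 fold change 0.86, adjusted p = 7.96e-05) and Ccn2 from 151 ± 43.8 to 276 ± 29.0. Angptl4 fell in MYBup (-0.96, adjusted p = 0.0477) and rose in lung3 (1.58, adjusted p = 0.0389) at levels of 0.297 to 1.35 CPM, and the calls ended without any 1 of 11 and of 7 of the 12 libraries (all but MYBup replicate 1, and all but mock replicates 2 and 3, MYBup replicates 1 and 2 and lung3 replicate 1). The adjusted p then reached 0.176. Angptl4 had 1.35 ± 0.157 CPM in mock, 0.691 ± 0.354 in MYBup, 0.927 ± 0.253 in lung3 and 0.297 ± 0.0300 in wt.

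**Figure D4:**
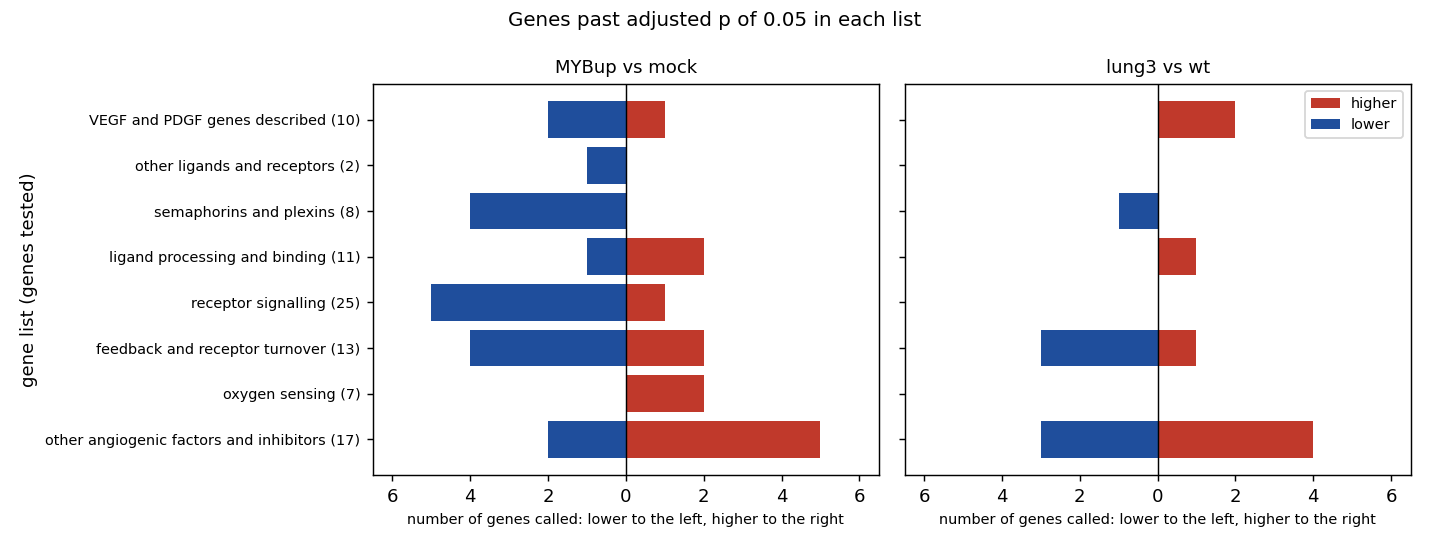
Number of genes past an adjusted p of 0.05 in each list, higher to the right and lower to the left, for MYBup against mock (left) and lung3 against wt (right), with the number tested in parentheses. Semaphorin and plexin genes show 4 lower and 0 higher in MYBup, and receptor signalling genes show no bar in lung3.

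The genes whose level followed a member most closely over the 12 libraries were found by Pearson's correlation of log2 CPM among 9025 genes whose average log2 CPM was 3 or more. The libraries share the 4 groups, so the values describe the pattern over groups and carry no test. Vegfa was closest to Maml2 (r = 0.971) and Npr3 (0.963), Vegfb to Igsf8 (0.970) and Tead3 (0.963), and Vegfc to Ier3 (0.933) and St5 (0.902). Pgf was closest to Parn (0.991) and Tnfaip2 (0.980). Pdgfa was closest to Acvr1b (0.885) and Jade2 (0.858), and Pdgfb to Inpp5a (0.958) and Ptbp2 (0.957). Among the receptors, Flt1 was closest to Kdm3a (0.969) and Ltbp1 (0.963), Nrp1 to Tbck (0.959) and Tm9sf2 (0.953), Nrp2 to Pum2 (0.977) and Met (0.961), and Pdgfra to Inf2 (0.975) and Wdr6 (0.972).

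The genes lie on GRCm38 in the GENCODE M21 annotation, each counted over its exons, and are all protein-coding. The VEGF ligand genes are Vegfa (ENSMUSG00000023951) at chr17:46016993-46032369 (minus), Vegfb (ENSMUSG00000024962) at chr19:6982473-6987651 (minus), Vegfc (ENSMUSG00000031520) at chr8:54077606-54187096 (plus) and Pgf (ENSMUSG00000004791) at chr12:85166635-85177790 (minus). The PDGF chain genes are Pdgfa (ENSMUSG00000025856) at chr5:138976014-138997370 (minus) and Pdgfb (ENSMUSG00000000489) at chr15:79995874-80014977 (minus). The receptor genes are Flt1 (ENSMUSG00000029648) at chr5:147561604-147726011 (minus), Nrp1 (ENSMUSG00000025810) at chr8:128358604-128503363 (plus), Nrp2 (ENSMUSG00000025969) at chr1:62703285-62818695 (plus) and Pdgfra (ENSMUSG00000029231) at chr5:75152292-75198215 (plus), with the strand in parentheses. The exons of some of these genes overlap those of other genes, and whether reads were counted by strand is not given. Exons of Pdgfa share 813 bases, 26.1% of their length, with the antisense model 6330403L08Rik, and those of Pdgfra 456 bases with the antisense model Gm42802. Exons of Nrp1 share 80 bases with Mir1903. The counts of these 3 genes are uncertain to that extent, as are those of Ccn2, Angpt1, Plcg1, Lrig1, Furin, Pcsk6, Plxna4 and Edn1, whose exons overlap other models by up to 23.2%. Exons of Vegfa, Vegfb, Vegfc, Pgf, Flt1, Nrp2 and Pdgfb overlap those of no other gene in the annotation used.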

How the data were processed

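RNA sequencing gave 12 libraries, 3 in each of 4 groups. The file that the authors deposited holds unnormalised read counts for 22880 genes, and 22570 Ensembl identifiers were found in GENCODE M21 (GRCm38). STAR, edgeR and GRCm38 are named per the submitters' processing notes. Not given in the sources used here were their versions, the counting tool, the gene models and the strand handling. The 2708 values over 4 digits are rounded to 4 significant digits.

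Tests used edgeR 4.0.16 in R 4.3.3, with filterByExpr, TMM scaling and 1 quasi-likelihood fit over the 12 libraries with a coefficient for each group. The p-values were adjusted by Benjamini-Hochberg over 11291 tested genes, with a threshold of 0.05. An SE was obtained from the fold change and its F statistic. CPM per kb divides CPM by merged exon length. For genes at 0 a floor of 3 counts was used, and floors and count intervals cover counting error only. The alternatives were DESeq2 1.42.0, voom in limma 3.58.1, RLE size factors, no low-count filter, a fit on the 6 libraries compared, a replicate block, and leaving out libraries. Figures used Python 3.11.15 and matplotlib 3.10.9.

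The set of 10 genes and the gene lists were chosen with earlier results of these data known. The naming rule took all 10, up to 4 called genes per list with the largest change in each main comparison, the 2 genes most correlated with each of the 10, and Myb. Other family members at 0 or not called, and marker genes, are named from the lists beside the results they touch.

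Pairing by replicate number was checked by correlating deviations from the group means. For lung3 with wt these were 0.329, 0.294 and 0.309 for equal numbers, all above 0.1, and -0.212 to -0.093 for other numbers. A pairing read this way comes from the data and not from the labels. The main fit therefore held no block, and the block is given as an alternative. For MYBup with mock they were -0.191, -0.496 and 0.382 for equal numbers and ran from -0.541 to 0.636 for other numbers. Values above 0.1 thus also arose between libraries of different numbers, so that level cannot establish a pairing. A simulation of 11193 genes had 200 changed between MYBup and mock. There edgeR recovered 59.7% of the 1.5-fold, 88.1% of the 2-fold and 97.0% of the 4-fold changes. In that simulation 4.12% of the edgeR calls were false, against 12.6% for DESeq2. The counts were drawn from the model and spread that edgeR itself estimates, with no other difference between groups. These rates therefore check the fits only, and cannot rank the tools or give their false calls in the real libraries.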

Additional observations from a re-analysis of the deposited data

How the results depend on the processing

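The median of all tested genes moved by at most 0.0102 on the log2 scale under any setting. The replicate block was fitted on the 6 libraries compared, so its values are set beside that fit without the block. Between MYBup and mock the block gave 1479 genes in place of 2473 (3038 in the fit on 12 libraries), with 3 of the 10 in each. Between lung3 and wt it gave 1985 in place of 649 (605 on 12), with 5 of the 10 in place of 3 (2 on 12). It changed no call of the 10 genes between MYBup and mock or between mock and wt. Between MYBup and wt it added Nrp1 (0.26, adjusted p = 0.0457, against 0.076 without the block), while Nrp2 passed in the 6-library fit with it (-0.29, adjusted p = 0.0339) and without it (-0.28, 0.03). In MYBup and mock the libraries share only a number, and there the block ended the calls of Arnt (adjusted p = 0.0504), Plcg1 (0.126), Plxna4, Gipc1 and Cblb. Those of Egln1, Furin and Angptl4 ended in the 6-library fit with or without it. Between lung3 and wt, DESeq2, no low-count filter and leaving out mock replicate 3 with lung3 replicate 3 each gave 4 of the 10. Leaving out 1 library gave 237 to 853 genes (237 without wt replicate 1, 268 without wt replicate 2 and 294 without lung3 replicate 2) and 1 to 4 of the 10 between lung3 and wt, and 2046 to 3386 genes and 3 to 5 of the 10 between MYBup and mock. The number of the 10 called in both comparisons in opposite directions is a count chosen after seeing the data. It was 1 in DESeq2, without the filter and without mock replicate 3 with lung3 replicate 3, and 0 to 2 with 1 library left out. Signs changed for values near 0. With libraries left out, Nrp1 between lung3 and wt ranged from -0.16 to 0.14, Pdgfa between MYBup and wt from -0.0015 to 0.087, and Nrp2 between mock and wt from -0.11 to 0.16. Nrp2 between mock and wt was also -0.017 with the replicate block and -0.021 in limma voom. The causes were not tested. Scaling by the longest transcript in place of merged exons moved 36 of 40 levels per length by more than 1 SD. Vegfc had the fewest counts of the ligands that passed, 43 to 147 per library.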
